A study of Mus musculus with 12 samples.

Results

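The liver comparison set 3 livers of mice lacking the vault RNA gene Vaultrc5 against 3 wild-type livers. These are 6 of the 12 libraries of the series, which also holds 6 brain libraries, and they were taken by their tissue and genotype labels. All came from male mice aged 7 to 9 weeks. The genotype labels read wild-type for the controls and vaultrc5-/- for the knockout, while the titles call the controls flx, a word the labels do not explain. Strain, the design of the deleted allele and litter are not given in the sources used here. The labels number the libraries 1 to 3 within each genotype without saying that each is a separate animal, so the p-values below measure the spread between these libraries, which may be technical.

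Vault RNAs are short RNAs made by RNA polymerase III. Some of them sit in the vault, a barrel-shaped particle built from the major vault protein, and human vault RNAs have been linked to the autophagy receptor p62 and to PKR, a kinase that senses double-stranded RNA. The liver is made up mostly of hepatocytes, which carry the urea cycle, glucose and lipid metabolism, bile acid synthesis and drug clearance, and which also secrete complement, clotting factors and the acute-phase proteins of inflammation. The liver libraries were therefore read through 15 lists of metabolic genes and 8 lists of immune genes, beside 14 lists of markers for the cell types and states that a piece of liver can hold.

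The 6 libraries held 23247425 to 27155478 counts, and 20810 to 21478 genes had a count in a given library. Vaultrc5 (ENSMUSG00000065145.1, chromosome 18, 36801866 to 36802008, GRCm38) was counted 33, 39 and 48 times in the 3 wild-type livers and 0 times in any knockout liver. A difference of -1.35 on the log2(CPM + 1) scale had p = 0.1 in a two-sided exact permutation test, the smallest value that 3 libraries against 3 allow (CPM are counts scaled to a common library size). Hepatocyte markers were abundant in all 6 libraries: Alb, which encodes serum albumin, was at 38965 to 52513 CPM in the wild type and at 30338 to 54488 CPM in the knockout.

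Knockout replicate 2 stood apart from the other 5 livers. On the first principal component of log2 expression, which took up 41.8% of the variance, it lay at 34.2 while the others lay between -21.2 and 8.2. The 31 acute-phase genes that could be tested were on average 1.93 log2 units above the wild-type mean in this library, against -0.156 in knockout replicate 1 and 0.051 in knockout replicate 3. Macrophage markers were 0.982 log2 units above the wild-type mean in the same library, and fatty acid oxidation genes at -0.853 log2 units from it. Results of the gene lists that rest on this library are therefore given with and without it, and its part in them is stated as values, with no cause tested.

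**Figure D1:**
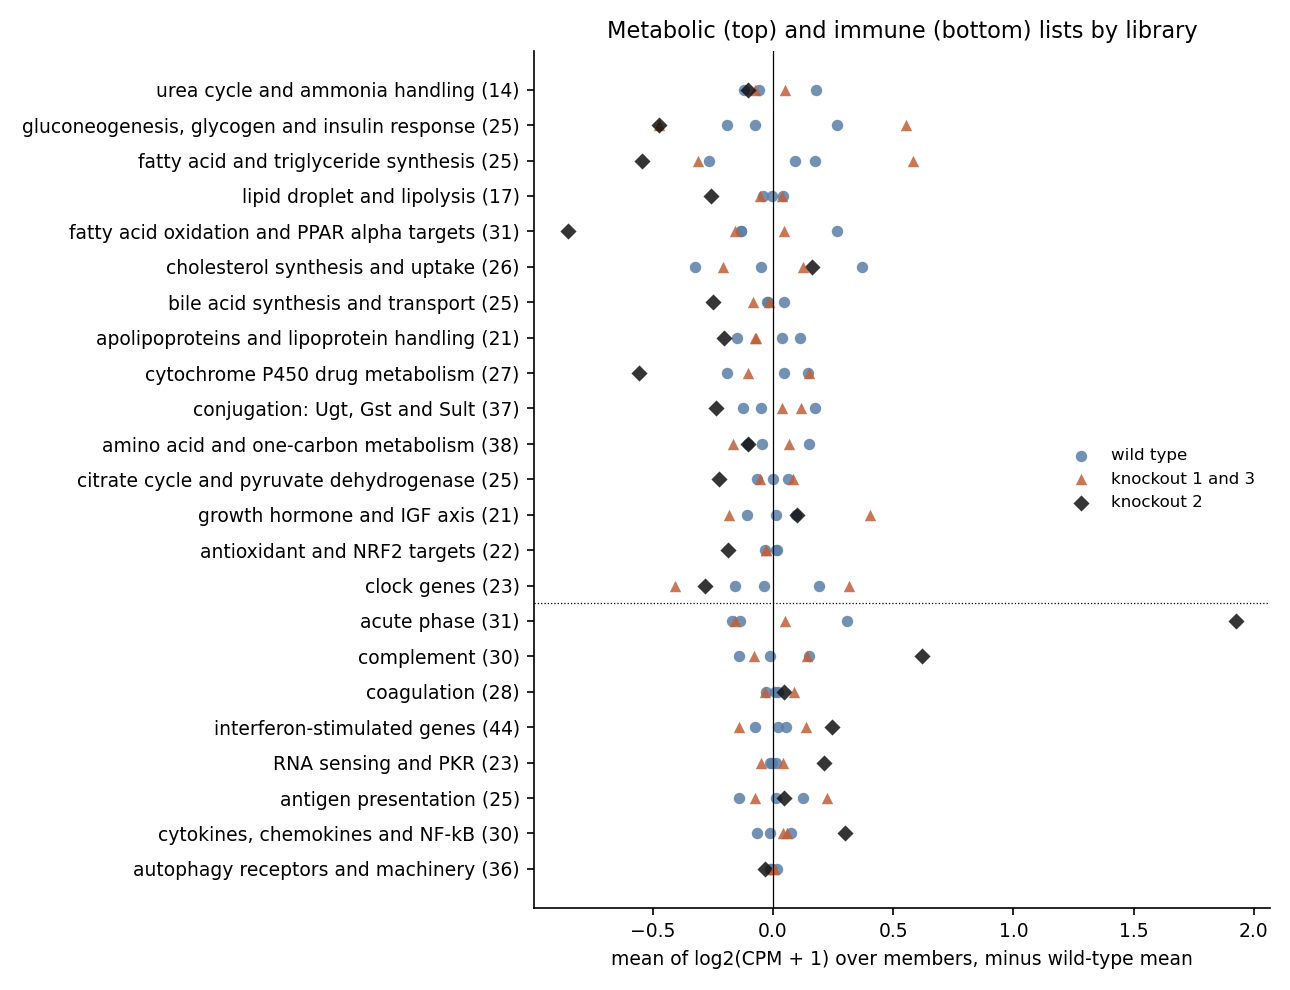
Mean of log2(CPM + 1) over the tested members of each metabolic (top) and immune (bottom) list in each of the 6 liver libraries, with the wild-type mean set to 0 and the number of members in parentheses. Knockout replicate 2 (black diamonds) lies at 1.93 for the acute-phase list and at -0.853 for the fatty acid oxidation list, while knockout replicates 1 and 3 (triangles) lie among or near the wild-type libraries (circles) for both.

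No gene passed the test across the transcriptome. Of 15329 genes tested with edgeR's quasi-likelihood test, 0 had a Benjamini-Hochberg adjusted p under 0.05 (0%). Before adjustment 536 genes (3.50%) were under 0.05, 277 of them higher in the knockout (1.81%) and 259 lower (1.69%). Pairing livers of the same number in a blocked fit left 2 genes that passed (0.0130%) and 983 (6.41%) with an unadjusted p under 0.05, 569 higher (3.71%) and 414 lower (2.70%). Those 2 were Foxq1 and G0s2, described below. The labels state no such pairing, which was read off these same expression values. The limma-voom test called 2 genes, Gm20687 and Vaultrc5, and the DESeq2 Wald test called 10, G0s2 among them, or 31 with the block.

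The count of genes with an unadjusted p under 0.05 fell between 384 and 1136 when single libraries were left out. The highest value came without knockout replicate 3, where 1136 genes (7.23%) had such a p, 655 of them higher (4.17%) and 481 lower (3.06%), and without knockout replicate 2 there were 448 (2.87%). Groups that did not overlap in CPM were found for 722 genes with all knockouts higher (4.71%) and for 788 with all knockouts lower (5.14%).

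The spread between libraries bounds how large an effect could have been missed. The median absolute log2 fold change between genotypes was 0.119, and the 95% interval of a gene reached a median of 0.392 log2 units to either side of its estimate (0.335 with the block). The whole interval lay within a 2-fold change in either direction for 11911 genes (77.7%) and within a 1.5-fold change for 8405 genes (54.8%). With the block these were 80.9% and 60.1%. A pair of one-sided tests against a 2-fold change, adjusted over all genes, placed 12572 genes (82.0%) below that size.

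Precision followed expression level up to a point. Of the 2010 genes under 1 CPM only 16.2% were bounded within 2-fold, against 77.2% of the 5726 genes at 1 to 10 CPM and 94.9% of the 6310 genes at 10 to 100 CPM. The share was 92.5% of 1171 genes at 100 to 1000 CPM and 83.0% of 112 genes over 1000 CPM. Genes bounded within 2-fold held 88.4% of all liver counts (81.3% to 91.3% in single libraries), and genes bounded within 1.5-fold held 63.1% (58.4% to 65.0%).

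**Figure D2:**
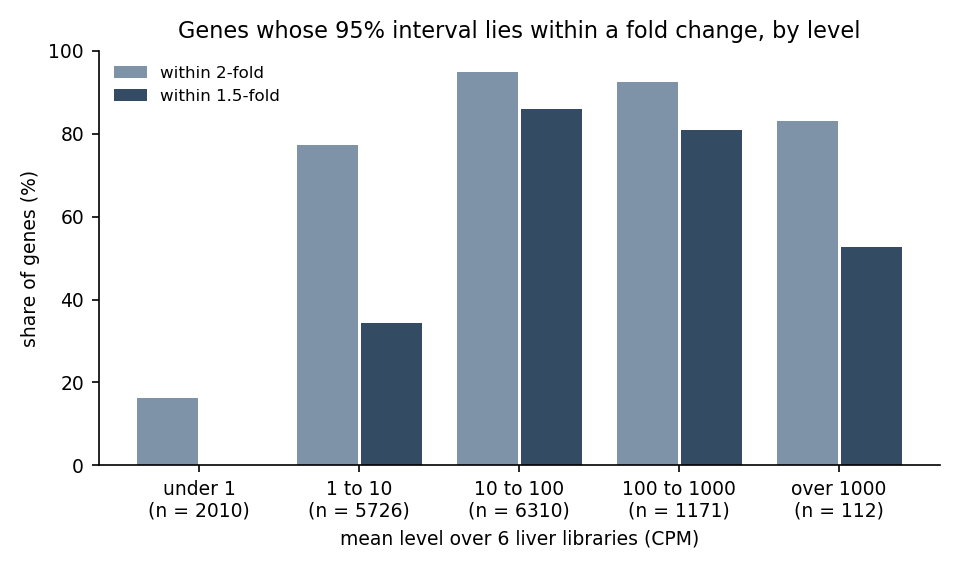
Share of liver genes whose 95% interval of the knockout to wild-type fold change lies wholly within 2-fold (light bars) or 1.5-fold (dark bars), by mean level in CPM. The 2-fold share is 16.2% under 1 CPM and 94.9% at 10 to 100 CPM, and it is 83.0% over 1000 CPM.

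Among the genes over 1000 CPM, 19 were not bounded within 2-fold, and knockout replicate 2 was the highest library for 15 of them and the lowest for 2. They include 8 genes of the Mup family, the major urinary proteins that the male mouse liver secretes as pheromone carriers, and the acute-phase genes Hp, Hpx, Fga and Itih4 (Mup17, Hp and Itih4 are named after their values were seen). Mup17 had the widest interval among the Mup genes, -2.86 to 7.06 on the log2 scale. It was at 356, 2284 and 117 CPM in the wild type and at 1513, 10220 and 87.6 CPM in the knockout, so replicate 2 was the highest library in each genotype. Mup genes are near-identical copies, and their expected counts depend on how shared reads were divided.

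Only 5 genes had a whole interval beyond 2-fold, and all had low counts. They are named here after their values were seen. Besides Vaultrc5 they were Gm20687, an antisense gene on chromosome 14 with 0 counts in the 3 wild-type livers and 25, 29 and 21 in knockout replicates 1 to 3, and Nudc-ps1, a processed pseudogene on chromosome 8 with 3, 0 and 0 counts against 55, 29 and 30. The others were Hba-a2, an alpha-globin gene with 2, 4 and 12 counts against 33, 25 and 39, and Ly6d, a surface protein gene with 6, 4 and 4 counts against 44, 16 and 12. Where a genotype is at 0 the fitted fold depends on the prior count and is no bound. In each of these genes the groups did not overlap, and none was called by edgeR among the 15329 filtered genes. With no filter beyond 1 count edgeR called Vaultrc5, Gm20687 and Nudc-ps1, as did the DESeq2 Wald test with and without the block, and limma-voom called Vaultrc5 and Gm20687. A log2 fold change beyond 1 in size was estimated for 243 genes.

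**Figure D3:**
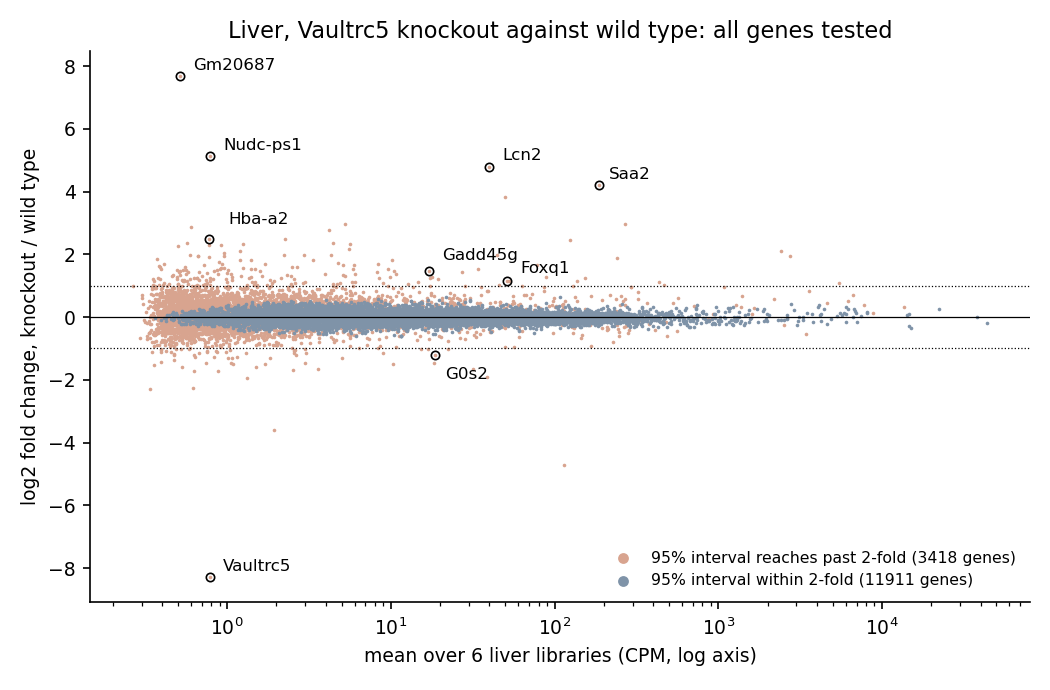
Log2 fold change of knockout over wild type (vertical) against mean level in CPM (horizontal, log axis) for the 15329 genes tested, with genes bounded within 2-fold in grey-blue and the others in light orange. Dotted lines mark 2-fold, and named genes are circled: Vaultrc5 lies at -8.29, and the largest positive value is 7.69, for Gm20687, both fitted values that depend on the prior count because one genotype is at 0.

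The metabolic genes had more estimates below 0 than above. Of 371 genes tested in the 15 metabolic lists, edgeR called 0 without the block, 1 was higher and 10 were lower at an unadjusted p under 0.05 (2.96% together, against 3.50% of all genes), and the median log2 fold change was -0.083 against 0.005 over all genes. The estimates were below 0 for 245 and above 0 for 126, against 7471 and 7858 over all genes. Leaving out knockout replicate 2 gave a median of 0.009, with 194 above and 177 below 0. In the blocked fit without that library, which leaves out wild-type replicate 2 in effect and was chosen after seeing the data, the median was -0.042, with 150 above and 221 below 0. Without knockout replicate 3 the median was -0.188, and 6 were higher and 43 lower at an unadjusted p under 0.05 (13.2%, against 7.23% of all genes), among them 4 lower in each of the fatty acid oxidation and citrate cycle lists, 5 lower clock genes and 3 lower bile acid genes. With the block and the third pair left out, 13 were higher and 83 lower (25.9%, against 8.64% of all genes). The interval lay within 2-fold for 271 (73.0%) and within 1.5-fold for 178 (48%), compared with 77.7% and 54.8% of all genes. With the block, 8 were higher and 26 lower at an unadjusted p under 0.05 (9.16%, against 6.41%), and edgeR called G0s2. The DESeq2 Wald test called G0s2 in these lists, and with the block G0s2 and Cyp2c38. With the block the P450 list had 1 higher and 4 lower and the clock list 2 higher and 2 lower, while the citrate cycle and conjugation lists had 2 lower each, the growth hormone list 1 in each direction, the urea list 1 higher, and the fatty acid synthesis and cholesterol lists 1 lower each. The lipid droplet list had 1 higher and 1 lower, and the antioxidant list 2 higher and 0 lower.

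G0s2 encodes an inhibitor of adipose triglyceride lipase, the enzyme that opens the breakdown of stored fat. It is ENSMUSG00000009633.3 on chromosome 1, 193272161 to 193273217. Its level was 26.5, 31.8 and 19.8 CPM in wild-type replicates 1 to 3 and 12.2, 12.5 and 9.08 CPM in knockout replicates 1 to 3. All 3 knockout livers lay below all 3 wild-type livers. The log2 fold change was -1.21 (95% interval -1.68 to -0.73), with an adjusted p = 0.992 (edgeR). The blocked fit gave -1.20 ± 0.095 (SE) and the edgeR adjusted p = 0.0215. Without knockout replicate 2 it was -1.29. The DESeq2 Wald test called it without the block (adjusted p = 1.9e-04) and with it, and limma-voom called it with the block (adjusted p = 0.0452). The edgeR call did not hold in the block fits that left out a same-numbered pair, where the adjusted p ran from 0.0770 to 0.171.

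The lipid droplet list was bounded about as often as all genes. Of 17 tested, 13 were bounded within 2-fold (77.7% of all genes were), and the median of -0.052 became 0.037 without knockout replicate 2. Hsd17b13, a hepatocyte lipid droplet protein, had an interval of -0.25 to 0.13. Cideb, which helps lipid droplets and lipoproteins fuse and mature, was at 0.02 (-0.23 to 0.27). Plin4, a droplet coat protein, had the widest interval, -2.45 to 2.00, with 5.87 to 34.6 CPM in the wild type and 7.86 to 27.1 CPM in the knockout.

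Genes of fatty acid oxidation mostly had estimates below 0. Of 31 tested members, 30 had estimates below 0, with a median of -0.226, against 7471 of 15329 genes below 0 in the whole table. At an unadjusted p under 0.05, 2 were lower and 0 higher, or 7 lower with the block (over all genes 1.69% and 2.70% were lower), and 20 were bounded within 2-fold. When knockout replicate 2 was left out, 17 were below 0 and 14 above, with a median of -0.044, and in the blocked fit without it 23 were below and 8 above, with a median of -0.065. The median was -0.098, with 24 below 0, without wild-type replicate 3, and -0.371, with 29 below 0, without knockout replicate 3. The summed level of the list was 7110 to 8130 TPM in the wild type (TPM are counts per gene length, scaled to the same total in each library), 4010 in knockout replicate 2, and 7250 and 8510 in the other knockouts.

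Acadvl, which begins the oxidation of long chains, was at 202, 192 and 214 CPM against 173, 164 and 177 CPM, a log2 fold change of -0.24 (-0.45 to -0.034; edgeR unadjusted p = 0.0281, adjusted p = 0.992), or -0.21 without knockout replicate 2. The groups did not overlap. Fabp1, the fatty acid carrier with the highest level per length in the list, was at 608 CPM in knockout replicate 2 and at 1079 to 1121 CPM in the other 5 libraries. Its log2 fold change was -0.23 with that library and 0.007 without it.

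Fatty acid synthesis had 12 members above and 13 below 0 and a median of -0.009, and this balance turned on single libraries. With the block 8 were above and 17 below, with a median of -0.111, and 12 rather than 5 were bounded within 1.5-fold. Without knockout replicate 2, 20 were above and 5 below (median 0.134), and without knockout replicate 3, 2 were above and 23 below (median -0.436), 6 of them lower at an unadjusted p under 0.05 (3.06% of all genes in that fit). Scd1, the desaturase that makes oleate, ranged from 6489 to 11092 CPM in the wild type and from 4926 to 14617 CPM in the knockout, with an interval of -0.85 to 1.1. Lpin1, a phosphatidate phosphatase of triglyceride synthesis, was at 674 CPM in knockout replicate 3 and 354 in wild-type replicate 3, but at 67.9 to 123 CPM in the other 4, and 12 of 25 members of the list were bounded within 2-fold. The median of cholesterol synthesis and uptake, 0.03, turned on single libraries in both directions. It was 0.269 with 24 of 26 above 0 without wild-type replicate 1, -0.116 without wild-type replicate 2 and -0.059 without knockout replicate 2, and in blocked fits 0.368 without the first pair and -0.230 without knockout replicate 2. The list had 22 of 26 members bounded within 2-fold and none at an unadjusted p under 0.05. In the blocked fit without the first pair 11 were higher at that p, where 451 of 15444 genes were. Sqle, squalene epoxidase, had the widest interval in that list, -0.85 to 1.42. With the block the same list had 14 members within 2-fold.

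Carbohydrate genes were among the least well bounded. Of 25 genes for gluconeogenesis, glycogen and the insulin response, 14 were bounded within 2-fold and the median was -0.059. The median was 0.055, with 16 above 0, without knockout replicate 2, and without knockout replicate 3 it was -0.421, with all 25 below 0 and 8 lower at an unadjusted p under 0.05, where 3.06% of all genes were lower. Ppp1r3c, which brings protein phosphatase to glycogen, was at 80.1, 88.9 and 53.2 CPM in the wild type and at 42.7, 28.1 and 45.2 CPM in the knockout. It was the member with the smallest p in the list, with no overlap between the groups and a log2 fold change of -0.94 (-1.55 to -0.33; edgeR unadjusted p = 0.00926, or 0.0633 with the block). Pck1, the rate-controlling enzyme of gluconeogenesis, spanned 772 to 2028 CPM in the wild type and 866 to 2109 CPM in the knockout, with an interval of -1.08 to 1.25. Gcgr, the glucagon receptor, had the narrowest interval, -0.32 to 0.061.

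The urea cycle and the citrate cycle were closer to a full bound. In the urea list 12 of 14 genes were bounded within 2-fold, with 0 at an unadjusted p under 0.05 and a median of -0.107 (-0.006 without knockout replicate 2). The median was 0.028, with 8 above and 6 below 0, without wild-type replicate 1. Cps1, the entry enzyme of the urea cycle, was at 3648 to 4699 CPM in the wild type and 3047 to 4264 CPM in the knockout, a log2 fold change of -0.15 (-0.58 to 0.27). In the citrate cycle list 24 of 25 genes were bounded within 2-fold and 21 within 1.5-fold, with a median of -0.033 (0.035 without knockout replicate 2, and -0.099 with 21 below 0 without knockout replicate 3). Sdha, a subunit of succinate dehydrogenase, was at -0.079 (-0.39 to 0.23), and Pdk1, a kinase that turns off pyruvate dehydrogenase, was the member outside the 2-fold bound, with an interval of -1.18 to 0.87.

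Amino acid and one-carbon genes held 2 members lower at an unadjusted p under 0.05, of 38 tested (1.69% of all genes were), and their median of -0.071 was -0.015 without knockout replicate 2. The median was 0.045, with 22 above and 16 below 0, without wild-type replicate 1. Without knockout replicate 3, 6 were lower, where 3.06% of all genes were. Csad, which makes a taurine precursor, was at 149, 151 and 158 CPM in the wild type and at 131, 71.8 and 118 CPM in the knockout. Agxt, the peroxisomal enzyme that clears glyoxylate, was at 148, 139 and 130 CPM against 116, 98.2 and 127 CPM. Neither pair of groups overlapped, and knockout replicate 2 was the lowest library for both. Without it the log2 fold changes went from -0.51 to -0.295 for Csad and from -0.29 to -0.19 for Agxt. Asns, asparagine synthetase, was at 23.6 CPM in knockout replicate 2 and at 1.34 to 3.83 CPM in the other 5 libraries, and its estimate moved from 1.54 to -1.13 (edgeR unadjusted p = 0.00826) when that library was left out.

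Bile acid genes had a median of -0.142 with 19 of 25 below 0, which became -0.019 with 13 below 0 without knockout replicate 2, and 21 were bounded within 2-fold. Nr0b2, which encodes the bile acid-responsive repressor SHP, was at 35.6, 33.3 and 15.6 CPM in the wild type and at 16.7, 15.9 and 17.6 CPM in the knockout. Wild-type replicate 3 lay below all 3 knockouts, and the interval of -1.50 to -0.002 only just left out 0 (edgeR unadjusted p = 0.0496). Cyp7b1, an enzyme of the alternative bile acid pathway, had the widest interval, -1.24 to 2.56. Of the apolipoprotein list 19 of 21 genes were bounded within 2-fold and 18 within 1.5-fold, with a median of -0.107 (-0.036 without knockout replicate 2). Apoa1 and Apoa2, the main proteins of high-density lipoprotein, were at -0.11 (-0.46 to 0.23) and -0.14 (-0.58 to 0.31). Apoc4 was at 343, 308 and 309 CPM in the wild type and at 265, 263 and 252 CPM in the knockout, which did not overlap, with a log2 fold change of -0.30 (-0.52 to -0.079), and its counts were not whole in any library, as happens where reads are divided among genes. Angptl8, an inhibitor of lipoprotein lipase, was at 38.1, 31.3 and 11.5 CPM against 19.2, 3.65 and 6.11 CPM, an estimate of -1.47 with an interval that reached from -3.44 to 0.50.

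Drug-metabolising cytochrome P450 genes had 22 of 27 estimates below 0 and a median of -0.163, which became -0.026 with 14 below 0 when knockout replicate 2 was left out (-0.069 with 17 below 0 in the blocked fit without it). With the block 24 were bounded within 2-fold, against 18 without it. Their summed level was 6610 TPM in that library and 9330 to 11300 TPM in the others. Cyp2a5, the coumarin hydroxylase, was at 463, 357 and 449 CPM in the wild type and at 363, 306 and 305 CPM in the knockout. Wild-type replicate 2 lay just below knockout replicate 1, and the log2 fold change was -0.38 (-0.70 to -0.060; edgeR unadjusted p = 0.0257). Cyp2e1, the most abundant member per length, was at -0.22 (-0.66 to 0.22). In the conjugation list 28 of 37 genes were bounded within 2-fold, with 0 at an unadjusted p under 0.05 and a median of -0.007 (0.076 without knockout replicate 2). P450 and glutathione transferase genes come in families of similar sequence, and the counts of Cyp2a5 and Cyp2e1 were not whole in any library.

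The growth hormone, antioxidant and clock lists held the remaining metabolic genes. In the growth hormone list 9 of 21 genes were bounded within 2-fold and the median was 0.061 (-0.067 with the block), with Onecut1, a liver transcription factor, ranging from 15.3 to 223 CPM in the wild type and from 58.4 to 312 CPM in the knockout. Of 23 clock genes 12 were bounded within 2-fold, with a median of -0.09 that was 0.069 without knockout replicate 2 and -0.279 without knockout replicate 3, and Noct, a rhythmic deadenylase-like enzyme, spanned 13.5 to 96.2 CPM in the wild type and 6.24 to 108 CPM in the knockout. With the block 18 clock genes were bounded within 2-fold. Among 22 antioxidant genes, G6pdx, which feeds NADPH into glutathione recycling, was the 1 metabolic gene higher at an unadjusted p under 0.05. It was at 3.94, 4.05 and 3.42 CPM in the wild type and at 5.05, 5.01 and 5.94 CPM in the knockout, a log2 fold change of 0.49 (0.12 to 0.85) that was 0.53 without knockout replicate 2. Nnt, a mitochondrial NADPH-generating enzyme, was at 17.2, 42.2 and 86.4 CPM against 18.7, 11.6 and 15.7 CPM. Its interval, -3.22 to -0.11, was the widest in the list, wild-type replicate 1 lay among the knockouts, the edgeR unadjusted p of 0.0401 became 0.167 with the block, and its counts were not whole in any library.

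**Figure D4:**
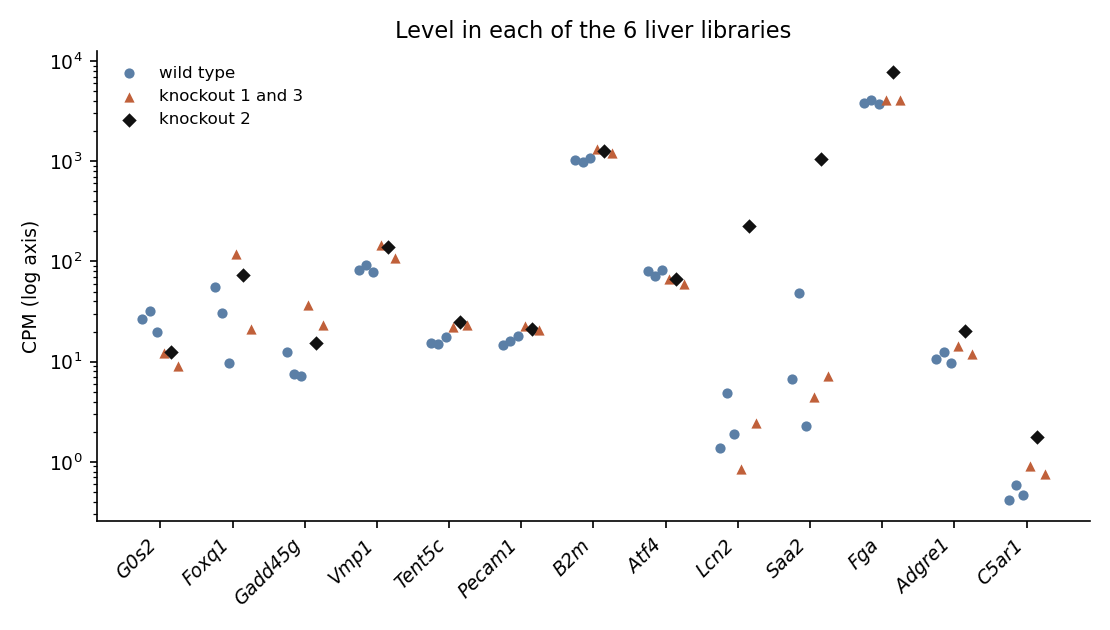
CPM (log axis) of 13 genes in each liver library: wild type as circles, knockout replicates 1 and 3 as triangles, knockout replicate 2 as black diamonds. G0s2 and Atf4 are lower in all 3 knockouts than in all 3 wild types, Foxq1 overlaps between the genotypes, and Lcn2 and Saa2 are highest in knockout replicate 2, with wild-type replicate 2 next.

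The immune genes had more estimates above 0. Of 244 genes tested in the 8 immune lists edgeR called 0 with or without the block (the DESeq2 Wald test with the block called Socs3), 8 were higher and 1 was lower at an unadjusted p under 0.05 (3.69%, against 3.50% of all genes), and 169 estimates were above 0 and 75 below, with a median of 0.090. Without knockout replicate 2 the median was 0.017, with 132 above and 112 below 0, and 3 were higher and 2 lower at an unadjusted p under 0.05. In the blocked fit without it the median was 0.032, with 150 above and 94 below 0. Without knockout replicate 3, 27 were higher and 1 lower (11.5%, against 7.23% of all genes), among them 4 higher in each of the RNA sensing and cytokine lists. With the block 22 were higher and 2 lower (9.84%, against 6.41%), among them 5 higher cytokine genes, 4 higher interferon-stimulated genes and, in the complement list, 3 higher and 1 lower. Intervals lay within 2-fold for 181 genes (74.2%) and within 1.5-fold for 128 (52.5%), and without knockout replicate 2 for 202 and 148.

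The acute-phase genes, which hepatocytes switch on under interleukin signals, had the largest median of the 8 lists. Of 31 tested, 30 were above 0 with a median of 0.951, yet 0 had an unadjusted p under 0.05 (3.50% of all genes did). With the block 3 were higher at that p, where 3.71% of all genes were. When knockout replicate 1 was left out, 5 were higher, where 269 of 15604 genes were. Without knockout replicate 2 the median was 0.06, with 18 above and 13 below 0, or 0.119 with 24 above and 7 below 0 in the blocked fit, and in the unblocked fit the number bounded within 2-fold went from 6 to 20. The summed level of the list was 26500 TPM in knockout replicate 2 and 12200 to 13500 TPM in the other 5 livers.

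Lcn2, an iron-siderophore binding protein of the acute phase, was at 1.38, 4.89 and 1.91 CPM in the wild type and at 0.842, 227 and 2.46 CPM in knockout replicates 1 to 3. Saa2, a serum amyloid A gene, was at 6.67, 48.6 and 2.26 CPM against 4.48, 1052 and 7.13 CPM. Fga, the fibrinogen alpha chain, was at 3840, 4084 and 3730 CPM against 4098, 7751 and 4099 CPM. In each, knockout replicate 2 was far above every other liver. For Saa2 wild-type replicate 2 was the next highest, and for Fga the other knockouts lay just above the highest wild type. The estimates were 4.80 (-1.29 to 10.9) for Lcn2, 4.2 for Saa2 and 0.45 (-0.16 to 1.07) for Fga. Without knockout replicate 2 they were -0.74, -1.73 and 0.077. Knockout replicate 2 exceeded the wild-type mean by 83.2-fold for Lcn2, 54.8-fold for Saa2, 4.17-fold for Apcs, 2.68-fold for Socs3 and 2-fold for Fga, while Hamp, the iron hormone hepcidin, was at 0.475 of it (Apcs, Socs3 and Hamp were named after their values were seen). Crp was the best bounded member, at 0.27 (-0.067 to 0.60).

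The promoters of the acute-phase genes were read because so many members were high in 1 library. Sequences from RefSeq (GRCm38.p6) were found for 26 of the 31 tested members, and the 250 bases upstream of the start were searched for TTCNNNGAA, the core shared by sites for STAT factors, which reads the same on both strands. It was found in 7 of 26 (26.9%), in 2 of 20 complement promoters (10%), in 3 of 22 promoters of the fatty acid oxidation list (13.6%) and in 2306 of 32851 promoters in the whole table (7.02%). This describes letters only and shows no binding. The 8 members with the largest folds in knockout replicate 2, Lcn2, Saa2, Orm2, Saa1, Mt2, Orm3, Saa3 and Mt1, had no such letters in this window. Shown, from the members that had them, are 3 that were higher in knockout replicate 2 and Hamp, which was lower, each 5′ to 3′ with the motif in capitals.
Apcs, serum amyloid P, chr1:172895055-172895304, minus strand: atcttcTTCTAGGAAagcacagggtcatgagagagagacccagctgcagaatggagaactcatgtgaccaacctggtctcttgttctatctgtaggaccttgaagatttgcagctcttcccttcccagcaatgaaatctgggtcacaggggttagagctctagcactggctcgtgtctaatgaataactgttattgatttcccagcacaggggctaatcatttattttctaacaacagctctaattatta
Socs3, an inhibitor of STAT3 signalling, chr11:117969367-117969616, minus strand: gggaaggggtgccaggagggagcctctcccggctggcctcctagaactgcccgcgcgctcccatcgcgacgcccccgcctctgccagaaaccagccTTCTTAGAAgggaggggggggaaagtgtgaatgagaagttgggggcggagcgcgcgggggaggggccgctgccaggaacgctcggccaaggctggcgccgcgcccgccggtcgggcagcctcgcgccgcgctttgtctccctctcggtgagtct
Fga, fibrinogen alpha chain, chr3:83025903-83026152, plus strand: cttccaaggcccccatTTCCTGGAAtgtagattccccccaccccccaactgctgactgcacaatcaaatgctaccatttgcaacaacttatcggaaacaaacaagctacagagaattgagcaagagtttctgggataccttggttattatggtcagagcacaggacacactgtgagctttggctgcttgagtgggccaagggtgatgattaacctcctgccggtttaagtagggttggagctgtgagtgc
Hamp, hepcidin, chr7:30944030-30944279, minus strand: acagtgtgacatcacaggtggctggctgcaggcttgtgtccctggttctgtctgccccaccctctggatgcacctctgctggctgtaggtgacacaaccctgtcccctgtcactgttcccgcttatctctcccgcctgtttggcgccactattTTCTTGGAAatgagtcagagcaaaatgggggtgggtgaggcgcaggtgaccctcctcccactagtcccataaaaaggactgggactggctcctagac

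Complement genes shared the pattern at a smaller size. Of 30 tested, 29 were above 0 with a median of 0.186, or 16 of 30 and a median of 0.010 without knockout replicate 2. In the blocked fit without it 23 of 30 were above 0, with a median of 0.122. Without knockout replicate 3, 8 were higher at an unadjusted p under 0.05, where 4.17% of all genes were. In all, 20 were bounded within 2-fold (28 without knockout replicate 2). C3, the central complement protein, was at 7487, 8029 and 7423 CPM in the wild type and at 7548, 10871 and 7475 CPM in the knockout. C5ar1, the receptor for the C5a fragment on myeloid cells, was the member at an unadjusted p under 0.05. Its level was 0.420, 0.589 and 0.467 CPM in the wild type and 0.918, 1.78 and 0.764 CPM in the knockout, without overlap. The log2 fold change was 1.22 (0.27 to 2.17; edgeR unadjusted p = 0.0186), or 0.77 (unadjusted p = 0.0825) without knockout replicate 2.

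Clotting factor genes were well bounded, 25 of 28 within 2-fold and 21 within 1.5-fold, with a median of 0.036. F8, the factor made by liver endothelium, was at 41.9, 39.4 and 44.1 CPM in the wild type and at 51.4, 48.2 and 47.8 CPM in the knockout. Tfpi, an inhibitor of the tissue factor pathway, was at 7.13, 6.55 and 6.84 CPM against 8.26, 8.96 and 8.36 CPM. In both the groups did not overlap, and the log2 fold changes of 0.23 (0.052 to 0.42) and 0.32 (0.055 to 0.58) were 0.25 and 0.28 without knockout replicate 2. Plg and Kng1, the most abundant members per length, had intervals of -0.24 to 0.37 and -0.25 to 0.42.

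Genes of the interferon response and of RNA sensing were read because of the link of vault RNAs to PKR. Their RNA levels do not measure the activity of that kinase. Of 44 interferon-stimulated genes 36 were bounded within 2-fold, and the median was 0.077 (0.003 without knockout replicate 2). Without knockout replicate 3 it was 0.169, with 40 above 0 and 5 higher at an unadjusted p under 0.05, where 4.17% of all genes were. With all libraries Trim30a, an interferon-induced TRIM protein gene, alone had an unadjusted p under 0.05 (1.81% of all genes were higher). Its log2 fold change was 0.35, with an interval of 0.018 to 0.68. Iigp1 and Bst2, the most abundant members per length, were at -0.065 (-0.35 to 0.22) and -0.039 (-0.27 to 0.19). Irf9, a part of the interferon-responsive ISGF3 complex, was at 0.014 (-0.19 to 0.21). The PKR gene Eif2ak2, named for the background above, was at 27.2, 27.0 and 22.7 CPM in the wild type and at 25.3, 30.7 and 19.9 CPM in the knockout. Its groups overlapped, and its interval was -0.40 to 0.35.

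In the RNA sensing list 20 of 23 genes were bounded within 2-fold, 2 were higher and 1 was lower at an unadjusted p under 0.05 (1.81% and 1.69% of all genes were). Atf4, the transcription factor whose translation PKR and related kinases promote, was at 80.4, 71.3 and 82.5 CPM in the wild type and at 66.6, 67.4 and 59.5 CPM in the knockout. Tmem173, which encodes the DNA sensor adaptor STING, was at 1.26, 1.69 and 1.13 CPM against 2.30, 2.25 and 1.99 CPM. The groups did not overlap for either gene. The log2 fold changes were -0.27 (-0.49 to -0.062) for Atf4 and 0.68 (0.13 to 1.22) for Tmem173, and -0.31 and 0.65 without knockout replicate 2. Tlr8, an endosomal RNA receptor of myeloid cells, was the second higher gene, at 0.65, or 0.35 without knockout replicate 2. Mavs and Tbk1, which relay the signal of cytosolic RNA sensors, were among the best bounded genes, at -0.088 to 0.26 and -0.13 to 0.19.

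Antigen presentation held 19 of 25 genes within 2-fold, with a median of 0.075 (0.049 without knockout replicate 2). The median was -0.06, with 10 above and 15 below 0, without knockout replicate 1, and 0.141 without wild-type replicate 1. B2m, the light chain of MHC class I, was at 1022, 987 and 1067 CPM in the wild type and at 1327, 1259 and 1210 CPM in the knockout. All 3 knockouts were above all 3 wild types, with a log2 fold change of 0.30 (0.040 to 0.57; edgeR unadjusted p = 0.0292), or 0.31 without knockout replicate 2. H2-Q10, a secreted class I protein of the liver, was at -0.10 (-0.37 to 0.18), and H2-Aa, a class II chain, had the widest interval, -0.91 to 1.14. Of 40 cytokine, chemokine and NF-kB genes 30 could be tested and 22 were bounded within 2-fold. Ccl9, a macrophage chemokine, was the 1 member higher at an unadjusted p under 0.05, at 38.3, 36.7 and 40.5 CPM against 41.9, 45.1 and 46.1 CPM.

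The autophagy genes, read because of the p62 link, were the most closely bounded of the 23 metabolic and immune lists. Their RNA levels measure neither p62 protein nor autophagy itself. All 36 tested members lay within 2-fold and 34 within 1.5-fold, with estimates from -0.177 to 0.243 and a median of -0.012. Without knockout replicate 2 the counts were 35 and 35. Sqstm1, the p62 gene, was at 286, 299 and 252 CPM in the wild type and at 272, 276 and 257 CPM in the knockout, an interval of -0.29 to 0.18. Gabarapl1 and Lamp1, the members with the highest level per length, were at -0.18 (-0.55 to 0.19) and 0.077 (-0.15 to 0.30). Ulk1, the kinase that starts autophagosome formation, had the widest interval, -0.69 to 0.74. Vmp1, also needed for that step, was not in this list. Its log2 fold change of 0.65 (0.34 to 0.95), described below, was not bounded within 1.5-fold.

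**Figure D5:**
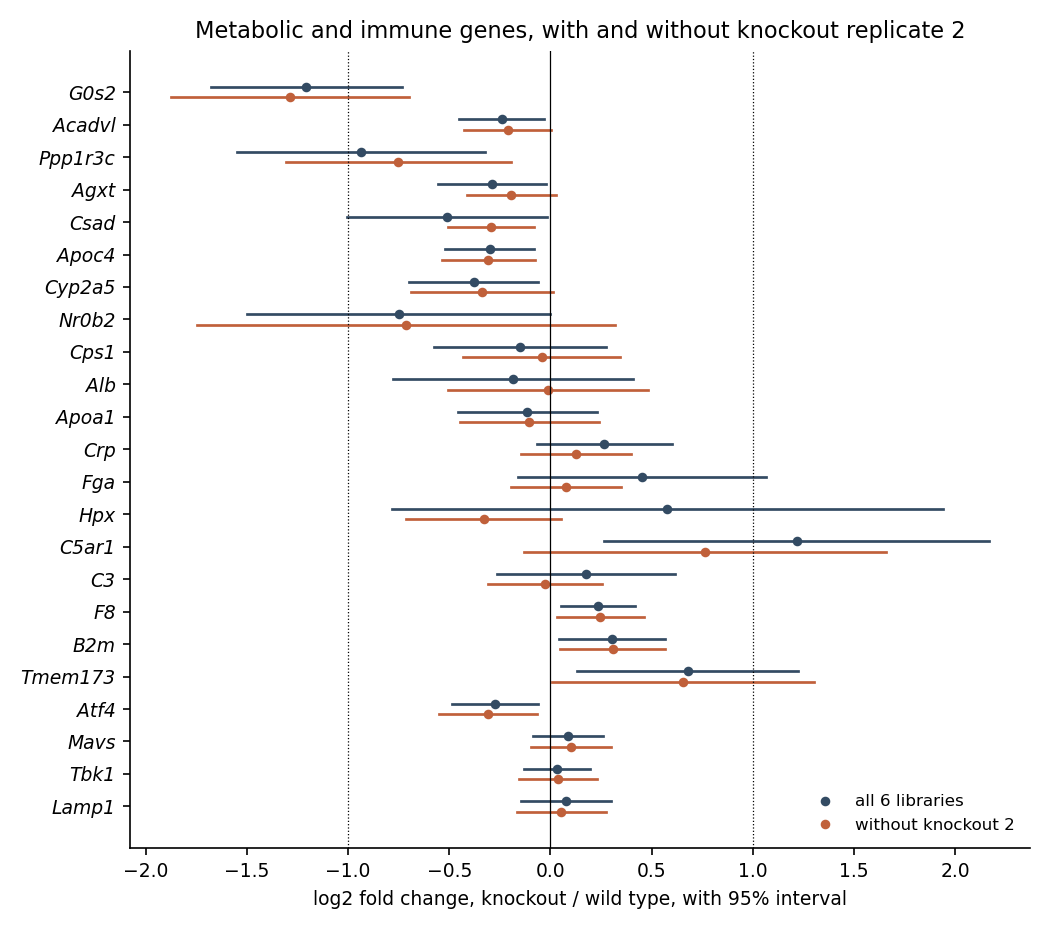
Log2 fold change of knockout over wild type with its 95% interval for 23 metabolic and immune genes, from all 6 libraries (dark blue) and without knockout replicate 2 (orange). Dotted lines mark 2-fold. The estimate for Hpx moves from 0.58 to -0.33 when that library is left out, while G0s2, B2m and Atf4 keep their side of 0.

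Marker lists gave the cell makeup beside these values. In bulk tissue, more cells of a type and more RNA per cell cannot be told apart. Of 20 Kupffer cell and macrophage markers, all tested, 18 were above 0 with a median of 0.578. At an unadjusted p under 0.05, 2 were higher, or 9 higher and 1 lower with the block (over all genes 1.81% were higher, or 3.71% with the block), and 12 were higher without knockout replicate 3, where 4.17% of all genes were. Their summed level was 292 to 351 TPM in the wild type and 378, 567 and 309 TPM in knockout replicates 1 to 3, and without replicate 2 the median was 0.12, or 0.247 in the blocked fit, with 17 above 0 in both. Adgre1, the F4/80 antigen, was at 10.7, 12.6 and 9.68 CPM in the wild type and at 14.5, 20.3 and 12.0 CPM in the knockout. Only wild-type replicate 2 lay within the knockout range. Cd68, a lysosomal protein of macrophages, was at 4.78, 6.22 and 4.90 CPM against 6.47, 10.7 and 6.49 CPM, with no overlap. C5ar1, Tlr8, Ccl6 and the C1q genes are macrophage genes too, and the part of the macrophage markers in their values was not tested.

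Other immune cells left little RNA. Of 22 T, B and natural killer cell genes 11 could be tested, all above 0 (median 0.514, and 0.414 without knockout replicate 2) and 0 with an unadjusted p under 0.05. Their summed level was 12.2 to 17.1 TPM in the wild type and 17.3 to 22.1 TPM in the knockout. Of 12 dendritic cell and monocyte genes 7 could be tested, all above 0, with a median of 0.44 that was 0.182 without knockout replicate 2. At an unadjusted p under 0.05, 1 was higher with and without the block (over all genes 1.81% were higher, or 3.71% with the block). Of 12 neutrophil markers only Csf3r could be tested, and the list summed to 1.44 to 3.68 TPM in the wild type and to 1.91, 10.3 and 4.39 TPM in knockout replicates 1 to 3. S100a8 and S100a9, their defining markers, had at most 23 and 37 counts, and Ly6g at most 1.

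Of 9 red cell markers 6 could be tested, and all 6 were above 0 with a median of 0.962, or 0.898 without knockout replicate 2. Hbb-bs, an adult beta-globin, was at 12.2, 4.89 and 10.7 CPM in the wild type and at 22.9, 16.6 and 14.7 CPM in the knockout. The groups did not overlap, with a log2 fold change of 0.97 (0.095 to 1.84; edgeR unadjusted p = 0.0349). The list summed to 72.7 to 110 TPM in the wild type and 109 to 133 TPM in the knockout. At an unadjusted p under 0.05, 2 members were higher, or 5 with the block (1.81% and 3.71% over all genes). Globin genes are near-identical copies. No globin gene in this list was called by edgeR or limma-voom, and the DESeq2 Wald test with the block called Hbb-bs.

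Endothelial markers were above 0 for 16 of 17 genes with a median of 0.112, all bounded within 2-fold. Pecam1, an adhesion molecule of endothelium, was at 14.6, 16 and 18.1 CPM in the wild type and at 22.7, 21.3 and 20.9 CPM in the knockout. There was no overlap, and the log2 fold change of 0.41 (0.17 to 0.65; edgeR unadjusted p = 0.00421) was 0.42 without knockout replicate 2. Stellate markers had a median of -0.079, with Col1a1 and Col3a1, the fibrillar collagen genes, lower at an unadjusted p under 0.05 (1.69% of all genes were), and 13 of 15 bounded within 2-fold. With single libraries left out, 0 to 4 stellate markers were lower at that p, with 0 without wild-type replicate 2, wild-type replicate 3 or knockout replicate 1 and 4 without wild-type replicate 1. Cholangiocyte markers had a median of 0.248, or 0.006 with 6 above and 6 below 0 without knockout replicate 1, and Krt19 and Muc1 were high in knockout replicate 1 alone, at 5.36 and 8.92 CPM against at most 1.44 and 1.17 CPM elsewhere. Of 14 pancreas and gut genes 3 could be tested, all below 0 with a median of -0.242. At an unadjusted p under 0.05, 1 was lower, with and without the block (over all genes 1.69% were lower, or 2.70% with the block). The list summed to 53.0 to 59.2 TPM in the wild type and to 47.2, 33.0 and 56.2 TPM in knockout replicates 1 to 3. Its members Prss1, Prss2, Cela3b, Cpb1, Pnlip and Ins2 had 0 counts in every liver library.

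Hepatocyte markers as a list had a median of -0.10 (-0.011 without knockout replicate 2), with 14 of 15 bounded within 2-fold, and their summed level was 53500 to 66300 TPM in the wild type and 41200 to 72800 TPM in the knockout. Cebpa, a transcription factor of mature hepatocytes, was at 341, 317 and 309 CPM in the wild type and at 264, 266 and 243 CPM in the knockout. The groups did not overlap, and the log2 fold change of -0.32 (-0.55 to -0.10; edgeR unadjusted p = 0.0103) was -0.35 without knockout replicate 2. Pericentral genes had a median of -0.15 and periportal genes of 0.087 (-0.092 and 0.144 without knockout replicate 2), with 13 and 8 of 15 bounded within 2-fold. Both signs turned on single libraries. The pericentral median was 0.061 without wild-type replicate 1. The periportal median was -0.042 without wild-type replicate 3 and -0.124 without knockout replicate 3. Proliferation genes had a median of 0.28 that was 0.007 without knockout replicate 2, and 1 of 11 was higher at an unadjusted p under 0.05 (1.81% of all genes were).

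Foxq1, a forkhead transcription factor on chromosome 13, 31556134 to 31560976, passed with the block and not without it. It was at 55.5, 30.4 and 9.64 CPM in wild-type replicates 1 to 3 and at 118, 73.6 and 21.3 CPM in knockout replicates 1 to 3. The groups overlapped, and each knockout was above the wild type of its own number. The log2 fold change was 1.16 (-1.08 to 3.41; edgeR adjusted p = 0.992), and with the block 1.17 ± 0.079 (SE; edgeR adjusted p = 0.0132). In the block fits that left out a same-numbered pair the adjusted p ran from 0.0770 to 0.121.

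Beyond the lists, the leading genes by unadjusted p ranged from small differences to some past 2-fold. Tent5c, a poly(A) polymerase, was at 15.4, 14.9 and 17.5 CPM in the wild type and at 22.3, 25.1 and 23 CPM in the knockout, a log2 fold change of 0.56 (0.33 to 0.79). Vmp1, an endoplasmic reticulum protein needed for autophagosome formation, was at 82.1, 91.2 and 79.1 CPM against 146, 141 and 108 CPM, a log2 fold change of 0.65 (0.34 to 0.95), and Mir21a lies within it. Dynlrb1, a dynein light chain, was at 39.7, 41.2 and 42.3 CPM against 54.0, 52.7 and 52.4 CPM, a log2 fold change of 0.37 (0.21 to 0.53). In these 3 genes the groups did not overlap, which their choice by a small p makes likely. Without knockout replicate 2 the estimates were 0.51, 0.59 and 0.37. Plk3, a stress-responsive kinase, and Wsb1, a ubiquitin ligase component, were at 0.43 and 0.71. The others on the higher side were Gm9780, Gm4737 and Gm43162, and those on the lower side included Oaz1-ps, G0s2, Gm23262, Snora73b, Med22, Snora74a and Rps14, with log2 fold changes from -1.46 for Gm23262 to -0.34 for Rps14. All of these had edgeR adjusted p = 0.992 except Oaz1-ps, an antizyme pseudogene, at adjusted p = 0.333, which edgeR called with no filter beyond 1 count (adjusted p = 0.00983). The DESeq2 Wald test called Vmp1 (adjusted p = 0.038, or 0.00275 with the block), G0s2, Oaz1-ps, Gm23262 and Gm4737. Of 20 handling and stress genes 9 were above and 11 below 0, with a median of -0.03, and Gadd45g, a growth arrest gene, was the 1 member at an unadjusted p under 0.05. It was at 12.5, 7.58 and 7.15 CPM in the wild type and at 37.1, 15.2 and 23.4 CPM in the knockout, without overlap, a log2 fold change of 1.48 (0.52 to 2.43) that was 1.74 without knockout replicate 2 (edgeR adjusted p = 0.992, and adjusted p = 0.0193 by the DESeq2 Wald test).

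An interaction of genotype and tissue, fitted over all 12 libraries with edgeR, called 0 of 20141 genes at the same threshold, and for 489 genes its unadjusted p was under 0.05. A blocked interaction fit called 2 genes, Moxd1 and Cela2a, named after their values were seen. For Cela2a the unblocked fit gave a liver minus brain value of -15.9 ± 7.77 (SE). Its marker list, pancreas and gut, had liver estimates from -0.347 to -0.06. A change as large as -15.9 was thus not seen in liver.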

How the data were processed

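Total RNA of 6 liver libraries was depleted of ribosomal RNA and sequenced as single-end reads, per the labels' protocols. The authors deposited 1 table of expected counts for 55450 genes and all 12 libraries. The submitters' processing notes name cutadapt, STAR and the mm10 build. The counting program and its strand setting are not given in the sources used here. The expected counts were rounded, and 0 table columns lacked a sample.

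Genes passed edgeR's filterByExpr (minimum count 10, minimum total 15), counts were scaled by TMM, and knockout was compared with wild type by the quasi-likelihood test with robust estimation (edgeR 4.0.16, R 4.3.3) and Benjamini-Hochberg adjustment at 0.05. Intervals are 95% intervals of the log2 fold change. Alternatives used limma 3.58.1, DESeq2 1.42.0, other scaling and filters, single libraries left out, and the replicate number as a block. The scripts were tested on simulated data.

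The labels state no pairing. Same-numbered livers of the 2 genotypes deviated together (correlations 0.326, 0.359 and 0.397 over 13319 genes), and unlike-numbered livers gave -0.317 to -0.057. Deviations are taken from each group's mean, so positive values for some pairs force negative ones for others. The numbers were taken to pair the livers, and values from the blocked fit are given beside the results they bear on. This pairing was read off the same data, so the blocked calls are not independent support. A limma-voom fit with the block and a blocked fit without knockout replicate 2 were chosen after seeing the data. Named genes were Vaultrc5, genes called with or without the block, the 8 with the smallest p in each direction at a mean of at least 1 CPM, and, per list, the 2 most abundant per length, up to 3 with the smallest p, and the narrowest and widest intervals, as far as a result turned on them. One gene that the rule names is not reported here. Genes added after their values were seen are marked, and Sqstm1 and Eif2ak2 were added for the background. The members and lists were chosen with earlier results of these data known. Intervals for counts near 0 come from the same quasi-likelihood fit, and where a genotype is at 0 they are no bound. On the scaled library sizes 3 counts correspond to 0.110 to 0.127 CPM.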

Additional observations from a re-analysis of the deposited data

How the results depend on the processing

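The count of genes called by edgeR was also 0 with DESeq2's size factors, library totals, a mean of at least 1 CPM, robust estimation off, all 12 libraries and an adjusted p under 0.1. It was 4 with no filter beyond 1 count, 2 with the replicate block, 2 with limma-voom, 10 with the DESeq2 Wald test and 31 with that test and the replicate block. Single libraries left out gave 0 to 1, the 1 without wild-type replicate 2. The replicate block with pair 1, 2 or 3 left out called 2, 2 and 6 genes, none of them G0s2 or Foxq1. Of the fits chosen after seeing the data, the replicate block without knockout replicate 2 called 2 and limma-voom with the replicate block 4. Genes with an unadjusted p under 0.05 numbered 983 with the replicate block, 1033 with limma-voom and the replicate block, and 384 to 1136 with single libraries left out. The count of genes whose knockout effect differs between liver and brain was 2 with the replicate block. The cause of these shifts was not tested. Under the replicate block Vaultrc5 stayed at -1.35 on the log2(CPM + 1) scale with an exact sign-flip p = 0.25, the smallest 3 pairs allow. Library totals moved the median of all genes to -0.036. With them 204 genes were higher and 348 lower at an unadjusted p under 0.05, against 277 and 259 with TMM. The fit without the block called 0 genes, so it held no called direction that another fit could reverse. Estimates of genes that were not called did change sign. Those of Asns, Lcn2 and Saa2 did so without knockout replicate 2.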
